A study of Mus musculus with 12 samples.

Results

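Sprouty and SPRED proteins are inhibitors of the Ras to ERK (extracellular signal-regulated kinase) pathway. The 5 genes Spry1, Spry2, Spry4, Spred1 and Spred2 were followed here through the antigen response of lymph node cells. They were found by their gene symbols: a probe set was used if it mapped to exactly 1 of these symbols, and the probe set with the highest mean over the 12 arrays stood for the gene. The 5 genes had 20 probe sets, and they are 5 of the 18193 genes with a probe set of their own. The other probe sets served as a check.

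The cells came from lymph nodes of P14-TCR mice, a strain whose T cells carry a transgenic receptor for the gp33-41 peptide, and were cultured for 4 h. There were 4 groups of 3 arrays: wild-type cells without peptide, wild-type cells with gp33-41 at 62.5 ng/ml, PKD2-null cells without peptide, and PKD2-null cells with the same peptide dose. PKD2 is protein kinase D2, the product of Prkd2, and the null mice carried the P14 receptor as the wild-type mice did. Each of the 6 mice gave 1 array without and 1 with peptide. The labels do not give the age of the mice or the part of Prkd2 that was deleted. They name a suspension of disaggregated lymph nodes and mention no sort of T cells, and whether the T cells were purified is not stated. In such bulk samples fewer cells of a type cannot be told apart from less RNA per cell.

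When a T cell receptor binds its peptide, Ras is loaded with GTP, which starts the RAF, MEK and ERK kinases in turn, and ERK switches on immediate early genes. Sprouty proteins are made in response to that signal and feed back on it, and they bind adaptors and ubiquitin ligases such as GRB2 and CBL. SPRED proteins share the C-terminal Sprouty domain and carry neurofibromin, the Ras GTPase-activating protein made by Nf1, to the membrane, where it returns Ras to its inactive form. PKD2 is activated by diacylglycerol signalling and protein kinase C downstream of the antigen receptor.

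The promoters of the genes that rose together (Spry1, Spry2 and Spred1) and of Spred2, which did not, are given for comparison. Each sequence is the 250 bases before the start of the gene, 5′ to 3′ on the gene's strand, from RefSeq on GRCm38.p6; 4 of the 5 genes were in the table used. Capitals mark GGAAA, the core of the NFAT motif, or TGACG, a half-site of the cAMP response element (CRE), on either strand.
Spry1, chr3:37639697-37639946, plus strand: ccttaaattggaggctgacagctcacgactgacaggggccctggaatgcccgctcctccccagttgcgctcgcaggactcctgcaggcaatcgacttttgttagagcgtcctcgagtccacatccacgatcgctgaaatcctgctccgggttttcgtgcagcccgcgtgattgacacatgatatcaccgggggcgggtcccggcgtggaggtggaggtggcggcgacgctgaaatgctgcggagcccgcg
Spry2, chr14:105896820-105897069, minus strand: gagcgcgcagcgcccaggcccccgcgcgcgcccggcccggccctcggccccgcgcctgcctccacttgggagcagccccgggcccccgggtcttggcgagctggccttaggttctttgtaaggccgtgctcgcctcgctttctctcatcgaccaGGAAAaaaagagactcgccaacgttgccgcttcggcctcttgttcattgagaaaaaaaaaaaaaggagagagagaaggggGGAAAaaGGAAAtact
Spred1, chr2:117120821-117121070, plus strand: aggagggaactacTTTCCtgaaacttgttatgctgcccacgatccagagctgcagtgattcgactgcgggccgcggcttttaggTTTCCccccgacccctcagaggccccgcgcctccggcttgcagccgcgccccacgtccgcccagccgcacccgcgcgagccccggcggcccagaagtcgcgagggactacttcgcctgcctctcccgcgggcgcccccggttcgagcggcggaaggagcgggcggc
Spred2, chr11:19924192-19924441, plus strand: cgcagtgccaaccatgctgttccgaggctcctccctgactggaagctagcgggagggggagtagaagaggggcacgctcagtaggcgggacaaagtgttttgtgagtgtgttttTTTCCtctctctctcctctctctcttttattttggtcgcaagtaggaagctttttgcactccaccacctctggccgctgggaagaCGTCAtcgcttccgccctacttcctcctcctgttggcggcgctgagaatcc
The 6 motifs searched first matched nowhere in these 4 windows. They were TGANTCA (AP-1, in 6.75% of 32851 promoter windows of this length), TGACGTCA (CRE, 1.55%), GCGNGGGCG (EGR, 4.70%), CCGGAA (ETS, 12.0%), TGGAAA (NFAT, 18.6%) and the CArG box (1.47%). The shorter letters shown in capitals were chosen after that result, and they lie within the longer CRE and NFAT motifs. GGAAA was found 3 times in Spry2, 2 times in Spred1, once in Spred2 and not in Spry1, and 55.6% of all windows hold it. TGACG was found once, in Spred2, and 17.8% of all windows hold it. GGAAA did not separate the genes that rose from Spred2, which did not. TGACG was in Spred2 alone, and a match in 1 gene allows no conclusion. The matches are a description of the letters.

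The values are log2 signals, 1 unit being a factor of 2. The median signal of an array was 4.67 to 4.72, and 0 pairs of arrays were identical. Precision is limited by the number of arrays. Differences are from a limma fit to the 4 group means with its standard error (SE, n = 3 arrays per group). A gene was called changed where its two-sided p, adjusted over 45037 probe sets by the Benjamini-Hochberg method, was under 0.05. As a check of the labels, Prkd2 was 10.17 in wild-type and 6.00 in null cells without peptide, a difference of -4.17 (SE 0.15, limma adjusted p 2.7e-08). With peptide the difference was -2.85 (limma adjusted p 2.5e-06).

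Peptide raised Spry1, Spry2 and Spred1 in cells of both genotypes and left Spry4 and Spred2 uncalled. In wild-type cells 3 of the 5 genes were called, all higher, where 35.5% of all genes were called in either direction and 15.1% were called higher. In null cells 3 of 5 were called, again all higher, against 31.5% of all genes in either direction and 12.5% higher. The median log2 difference of the 5 genes was 1.95 in wild-type and 0.93 in null cells, beside 0.01 and -0.02 over all genes. Markers of cell types and a measure of RNA integrity also moved with peptide. In wild-type cells 4 of 6 CD8 T cell markers (median -0.65) and 6 of 7 B cell markers (median -0.73) were called lower, where 20.4% of all genes were. In null cells 2 of 6 CD8 T cell markers (median -0.14) and 5 of 7 B cell markers (median -0.68) were called lower, where 19% of all genes were. The difference between 3′ and 5′ actin signals averaged 0.278 without and 0.211 with peptide in wild-type cells, and 0.278 and 0.200 in null cells. The part of these shifts in the peptide responses of any gene given here was not tested.

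**Figure D1:**
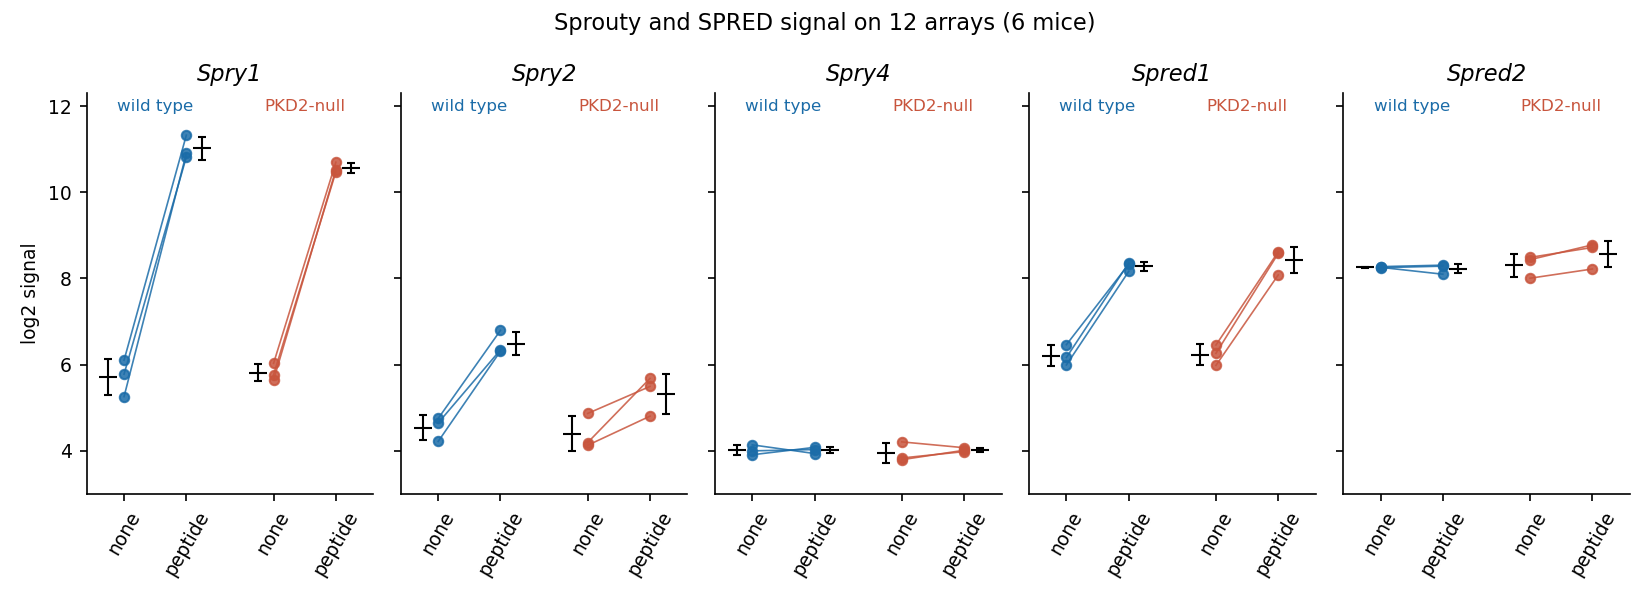
Log2 signal of the 5 genes (vertical axis) on the 12 arrays, without and with peptide, in wild-type (blue) and PKD2-null (red) cells. Lines join the 2 arrays of a mouse, and black bars give the group mean and SD (n = 3). Spry1, Spry2 and Spred1 rose in every mouse, and the stimulated null values of Spry2 (4.80 to 5.68) lie below the stimulated wild-type values (6.31 to 6.79).

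Spry1 encodes the Sprouty protein best known as a regulator of antigen receptor signals in T cells. Without peptide its signal was 6.10, 5.77 and 5.25 in the 3 wild-type mice and 5.64, 5.76 and 6.03 in the 3 null mice. With peptide it was 11.33, 10.82 and 10.91 in wild-type and 10.53, 10.48 and 10.70 in null cells. Every stimulated value lay above every unstimulated one, and the unstimulated values of the 2 genotypes overlapped. The rise was 5.31 (SE 0.20, limma adjusted p 2.4e-09), or 39.7-fold, in wild-type cells. In null cells it was 4.76 (SE 0.20, limma adjusted p 1.3e-08), or 27.1-fold. Among 18193 genes this rise ranked 11th in wild-type and 10th in null cells. One probe set measured Spry1, so no second one could be set beside it.

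Spred1 encodes a SPRED protein that recruits neurofibromin. Its unstimulated signals were 6.16, 5.99 and 6.46 in wild-type and 6.45, 5.98 and 6.26 in null cells. With peptide they were 8.36, 8.16 and 8.33 in wild-type and 8.62, 8.08 and 8.58 in null cells. Stimulated and unstimulated values did not overlap, while the genotypes overlapped in both conditions. The rise was 2.08 (SE 0.17, limma adjusted p 9.2e-07), or 4.23-fold, in wild-type cells and 2.20 (SE 0.17, limma adjusted p 1.0e-06), or 4.59-fold, in null cells. Of the 7 other Spred1 probe sets, 5 were called higher in wild-type and 6 in null cells, and 0 were called lower. Their rises ran from 0.16 to 2.26 in wild-type and from 0.30 to 2.29 in null cells.

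Spry2 encodes a Sprouty protein that binds the ubiquitin ligase CBL. Its unstimulated signals were 4.64, 4.21 and 4.74 in wild-type and 4.12, 4.86 and 4.19 in null cells, near the array medians. With peptide they were 6.34, 6.31 and 6.79 in wild-type and 4.80, 5.49 and 5.68 in null cells. The wild-type groups did not overlap, whereas in null cells the highest unstimulated value exceeded the lowest stimulated one by 0.06. The rise was 1.95 (SE 0.25, limma adjusted p 5.0e-05), or 3.86-fold, in wild-type cells and 0.93 (SE 0.25, limma adjusted p 0.015), or 1.91-fold, in null cells. The call in null cells was lost without any 1 of 4 null arrays: unstimulated replicate 1 (0.80, adjusted p 0.068), unstimulated replicate 3 (0.83, 0.061), stimulated replicate 2 (0.85, 0.050) and stimulated replicate 3 (0.75, 0.072). The other Spry2 probe set, at 4.65 to 4.97 in the group means of stimulated cells, was not called in either genotype, with differences of 0.28 in wild-type and 0.01 in null cells.

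**Figure D2:**
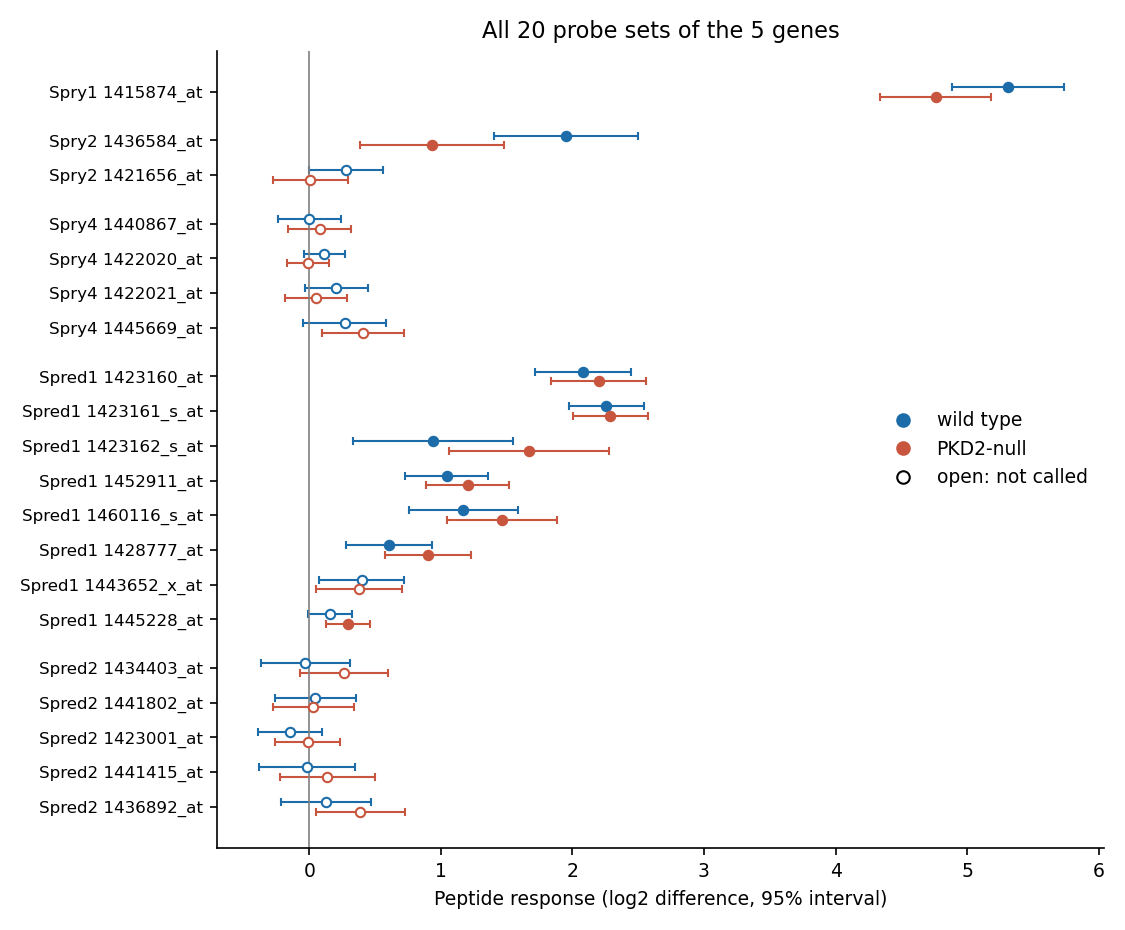
Peptide response (log2 difference with its 95% interval, horizontal axis) of all 20 probe sets of the 5 genes, in order of mean signal within a gene, for wild-type (blue) and PKD2-null (red) cells. Filled points were called. Spred1 probe sets lie mostly to the right, Spry2 is called by 1 of its 2 probe sets, and no Spry4 or Spred2 probe set is filled.

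Spry4 encodes a further Sprouty protein. The signal of the Spry4 probe set with the highest mean stayed between the 25th percentile (3.60) and the median (4.70) of all values. It was 3.99, 3.90 and 4.13 in unstimulated wild-type and 4.02, 4.07 and 3.93 in stimulated wild-type cells. In null cells it was 3.79, 4.20 and 3.83 without and 4.01, 4.07 and 3.97 with peptide. All groups overlapped. The peptide response was 0.00 in wild-type cells (95% interval -0.24 to 0.24, limma adjusted p 1) and 0.08 in null cells (-0.16 to 0.32, adjusted p 0.72). None of the 3 other Spry4 probe sets was called in these comparisons (0.11 to 0.27 in wild-type and -0.01 to 0.41 in null cells). Their group means were 3.02 to 3.74, around and below the 25th percentile. At such low signals a lack of response cannot be told apart from a lack of detectable signal.

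Spred2, the second SPRED gene, had a high and steady signal. It was 8.28, 8.26 and 8.25 in unstimulated wild-type and 8.31, 8.10 and 8.29 in stimulated wild-type cells. In null cells it was 8.44, 8.01 and 8.49 without and 8.78, 8.22 and 8.72 with peptide, so that the conditions overlapped in both genotypes. The response was -0.03 in wild-type cells (95% interval -0.37 to 0.31, limma adjusted p 0.93). In null cells it was 0.26 (-0.07 to 0.60, adjusted p 0.28), higher in 3 of 3 mice, and it was called with the mouse as a block (adjusted p 0.043) or without stimulated null replicate 2 (0.44, adjusted p 0.034). The 4 other Spred2 probe sets were not called, with -0.15 to 0.13 in wild-type and -0.01 to 0.39 in null cells. The remaining family genes Spry3 and Spred3 had group means between 3.14 and 3.80 and were called in none of the 5 comparisons.

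Without peptide, PKD2-null and wild-type cells did not differ detectably in the 5 genes. Of the 5, 0 were called by limma, where 0.044% of all genes were called, and 0 had an unadjusted p under 0.05, where 10.6% of all genes had one. The differences, null minus wild type, ran from -0.14 for Spry2 (95% interval -0.69 to 0.40) to 0.10 for Spry1 (-0.32 to 0.52).

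With peptide, Spry2 was lower in null cells, and 1 of the 5 genes was called where 1.64% of all genes were called in either direction and 0.544% were called lower. An unadjusted limma p under 0.05 was found for 3 of the 5 (Spry2 and Spry1 lower, Spred2 higher), and for 17.6% of all genes. The difference, null minus wild type, was -1.16 for Spry2 (SE 0.25, limma adjusted p 0.049), a factor of 2.23, and all 3 null values lay below all 3 wild-type values. The call stood close to the threshold. It was lost without 11 of the 12 arrays taken singly, unstimulated null replicate 2 being the exception (adjusted p 0.032). Over these the difference ran from -1.34 to -0.90 and the adjusted p from 0.032 to 0.19. It was also lost in a fit of only the 2 groups compared (adjusted p 0.11), and the other Spry2 probe set gave -0.32 (adjusted p 0.26).

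Spry1 too was lower in every stimulated null culture than in every wild-type one, with a difference of -0.45 (95% interval -0.88 to -0.03, limma adjusted p 0.29), which was not called. Spred1 differed by 0.14 (-0.22 to 0.51, adjusted p 0.73) and Spry4 by 0.01 (-0.23 to 0.25, adjusted p 0.99). Spred2 was higher by 0.34 (0.01 to 0.68, adjusted p 0.31) with overlapping values, and it was called without both arrays of null replicate 2 (0.52, adjusted p 0.020).

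**Figure D3:**
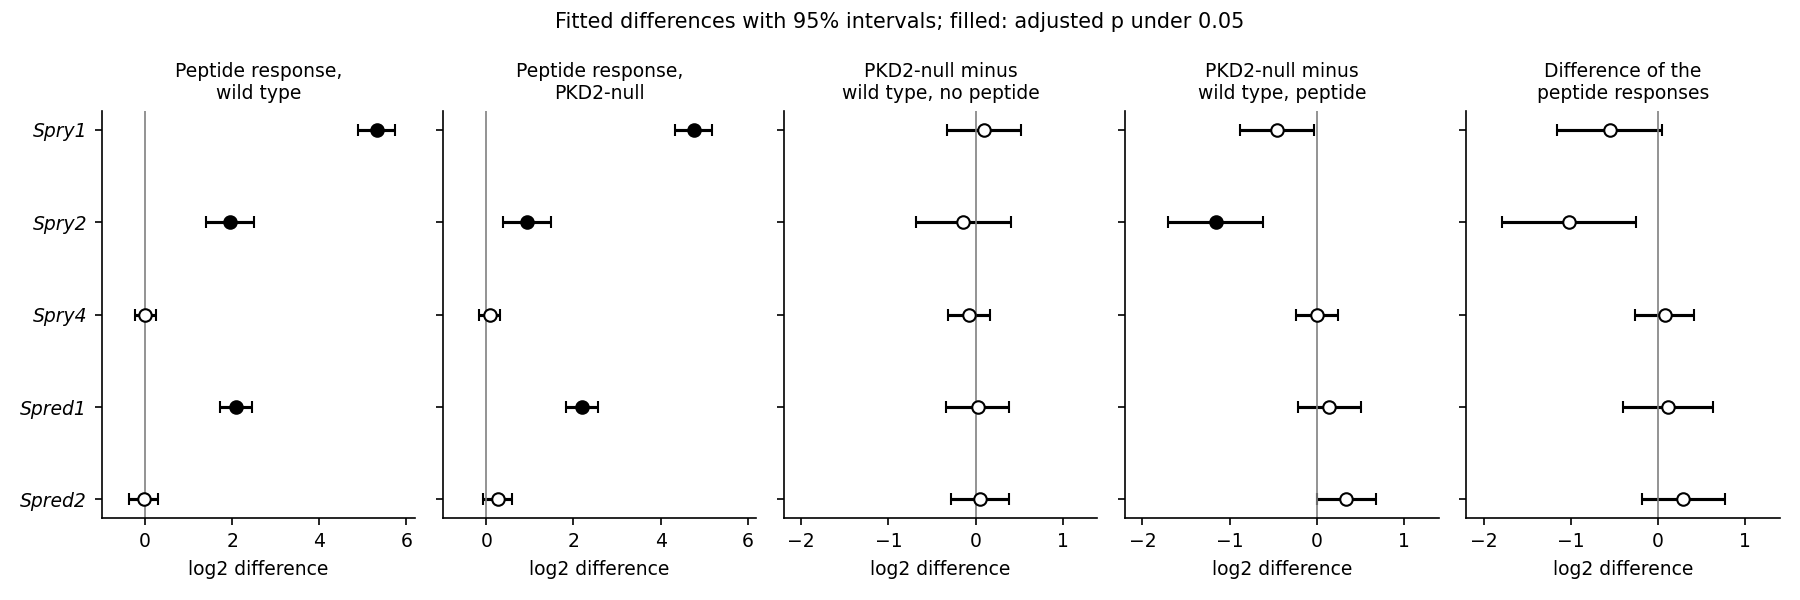
Fitted log2 differences (points) with 95% intervals for the 5 genes in the 5 comparisons. Filled points have a limma adjusted p under 0.05: Spry1, Spry2 and Spred1 in both peptide responses, and Spry2 alone between stimulated null and wild-type cells (-1.16).

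The null mice also differed from wild-type mice in markers of cell types besides CD8 T cells. B cell markers (7 genes) had a mean log2 signal of 8.01 to 8.33 in stimulated wild-type and 8.69 to 9.30 in stimulated null cells. Called higher were 2 of the 7, Cd79b and Fcrla, where 1.64% of all genes were called in either direction. Without peptide the mean of the 7 was 8.93 to 9.06 in wild-type and 9.41 to 10.04 in null cells. There 0 of the 7 were called, where 0.044% of all genes were. All 7 had an unadjusted limma p under 0.05, as 10.6% of all genes had. Of 5 natural killer markers 1, Klrd1, was called lower in stimulated null cells (-0.92), and of 8 salivary gland markers 1, Dcpp3, was (-6.15). Over all genes 0.544% were called lower there. Without peptide Klrd1 was at 11.93 in wild-type and 10.93 in null cells and was not called. The mean of the 5 natural killer markers was far lower, at 7.01 and 6.68. Whether the Klrd1 signal came from natural killer cells was not tested. The mean of the salivary markers was 7.48 to 8.56 in stimulated wild-type and 5.25 to 7.52 in stimulated null cells. CD8 T cell markers (6 genes, 0 called) were at 10.61 to 10.79 and 10.66 to 11.13, myeloid markers (10 genes, 0 called) at 6.39 to 6.52 and 6.33 to 6.84, and stromal markers (10 genes, 0 called) at 4.56 to 4.72 and 4.58 to 4.67. Null replicate 2 had the highest B cell and myeloid and the lowest CD8 T cell values of the null mice in both conditions. Without both its arrays the Spry2 difference was -1.24 (limma adjusted p 0.029), and without its stimulated array alone the call was lost (adjusted p 0.059). Of the 6 omissions of a mouse, 1 kept the Spry2 call and 5 lost it (adjusted p up to 0.20). The difference between 3′ and 5′ actin signals, a measure of RNA integrity, averaged 0.211 in stimulated wild-type and 0.200 in stimulated null cells. These 4 genes were picked out after their values were seen, and the part of the markers in the Spry2 difference was not tested.

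The size of the peptide response was compared between genotypes per mouse. For Spry2 the response was 1.70, 2.10 and 2.05 in the wild-type mice and 0.68, 0.63 and 1.49 in the null mice. For Spry1 it was 5.23, 5.05 and 5.66 in wild-type and 4.89, 4.71 and 4.68 in null mice. For Spred2 it was 0.03, -0.16 and 0.04 against 0.34, 0.21 and 0.23. These responses did not overlap between genotypes, being smaller in null mice for Spry2 and Spry1 and larger for Spred2. The share of all genes whose responses do not overlap was not computed, so this cannot be read as particular to the 3 genes. A two-sided exact permutation test gave p = 0.1 for each, the smallest that 3 against 3 mice allow (0.167 after Benjamini-Hochberg adjustment over the 5 genes). For Spry4 and Spred1 the responses overlapped (exact p = 0.6).

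In the limma fit none of the 5 differences of the responses was called, where 0.0055% of all genes were called, and 1 of 5 (Spry2) had an unadjusted p under 0.05, as 7.71% of all genes had. The difference was -1.02 for Spry2 (SE 0.35, limma adjusted p 0.60, or 0.18 with the mouse as a block). It was -0.55 for Spry1 (SE 0.28, adjusted p 0.73) and 0.29 for Spred2 (SE 0.22, adjusted p 0.83). The per-mouse responses of Spry2 were thus apart in the 2 genotypes, while the difference did not pass the test across all probe sets.

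The order of the 4 groups differed between the genes. Spry1 and Spry2 were highest in stimulated wild-type cells, followed by stimulated null cells, and these neighbours did not overlap. Spred1 was highest in stimulated null cells (8.43 ± 0.30 SD) and then stimulated wild-type cells (8.29 ± 0.11 SD, n = 3 each), which overlapped. Across the 12 arrays, which share the peptide treatment as their main contrast, Spry1 and Spred1 had a Pearson r of 0.97, Spry1 and Spry2 of 0.84, and Spry2 and Spred1 of 0.77.

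The genes with the profile most like each one over the 12 arrays were sought among those with a range of at least 1. For Spry2 they were Atf3, a stress-induced transcription factor (r = 0.954), Tnfsf11, the cytokine RANKL (0.952), Marcksl1 (0.951) and Cdkn1a, a cell cycle inhibitor (0.945). Tnfsf11 had group means of 5.96, 10.98, 5.60 and 9.03 in the order unstimulated wild type, stimulated wild type, unstimulated null and stimulated null. The difference between stimulated null and wild-type cells was -1.60 for Atf3, -1.94 for Tnfsf11, -0.93 for Cdkn1a and -0.86 for Marcksl1. These genes were chosen for their likeness to Spry2 on the same arrays, so a lower value there was selected for and is given with no test. For Spry1 the most alike were Ndufaf4, Gtpbp4, Gramd1b and Nmd3 (r of 0.997 to 0.998), and 1129 genes had an r of at least 0.9 with it. For Spred1 they were Tacc2, Zap70, Usp36 and Septin11 (r of 0.991 to 0.992, with 1070 genes at 0.9 or more), while 104 genes reached that level for Spry2. No gene reached 0.9 for Spry4 or Spred2, whose nearest were Samd11 (0.75) and Cep295 (0.88).

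In the kinase cascade on which these inhibitors act, 0 of 16 measured genes (21 listed) were called higher and 7 lower in wild-type cells, where 15.1% of all genes were called higher and 20.4% lower. In null cells 0 were called higher and 9 lower, against 12.5% and 19% of all genes. The medians were -0.27 and -0.34, and the markers of B and CD8 T cells that were lower with peptide are given above. The largest wild-type falls were those of Rasgrp2, a Ras guanine nucleotide exchange factor (-2.21, SE 0.15, limma adjusted p 2.4e-07), and Sos2, another exchange factor (-1.05, adjusted p 8.8e-06). Rasgrp3 (-1.04), the Ras-like GTPase Rras (-1.03) and the exchange factor Sos1 (-0.97) followed.

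Of 7 measured Ras GTPase-activating proteins (8 listed), 3 were called higher and 2 lower in wild-type, and 1 higher and 2 lower in null cells. Over all genes 35.5% were called in wild-type and 31.5% in null cells, so that 3 of 7 in null cells is near the share of all genes. Rasa3 (-2.03) and Rasal3 (-1.58) were lower in wild-type cells, while Rasa2 was higher by 0.49 and Rasal1 by 0.45. Nf1, whose product SPRED proteins recruit, was higher by 0.31 (SE 0.10, limma adjusted p 0.035), at 5.20, 4.95 and 5.25 without and 5.49, 5.36 and 5.47 with peptide. Without unstimulated wild-type replicate 2 the wild-type count fell from 5 to 3.

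Among 13 measured partners of Sprouty and SPRED proteins (14 listed, Nf1 included), 3 were called higher and 4 lower in wild-type cells, and 1 higher and 1 lower in null cells. The null count, 2 of 13, is below the 31.5% of all genes called there, and the wild-type count, 7 of 13, stands beside 35.5%. Siah2, a ubiquitin ligase that binds Sprouty proteins, rose by 1.31 in wild-type (limma adjusted p 5.5e-06) and 1.00 in null cells (adjusted p 7.7e-05). Cbl (-0.68), Nedd4, another ubiquitin ligase (-0.81), and the kinase gene Dyrk1a (-0.57) were lower in wild-type cells. The wild-type count of 7 was 4 without unstimulated replicate 2, stimulated replicate 1 or stimulated replicate 3, and the null count of 2 was 5 with the mouse as a block.

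Of 18 genes that ERK signalling is known to induce, 13 were called higher and 0 lower in wild-type cells, where 15.1% of all genes were called higher. In null cells 12 were called higher and 0 lower, against 12.5% of all genes, and these 12 were among the 13. The medians were 1.32 and 1.35, and the lowest members, at -0.21 and -0.08, were not called. The growth regulator Myc rose by 4.02, the AP-1 gene Fosl1 by 3.65, and Egr2, Egr3 and Egr1, immediate early transcription factors, by 3.58, 3.51 and 3.45 in wild-type cells. In null cells the rises were 3.60 for Myc, 2.37 for Fosl1, and 3.10, 2.87 and 2.97 for the 3 Egr genes. Without peptide, null means were above wild-type means for Egr1 (10.36 against 9.44), Egr2 (8.56 against 7.93), Egr3 (8.89 against 8.39) and Fosl1 (5.14 against 4.72). In that comparison 0 of the 18 were called, where 0.044% of all genes were, and 8 lay above 0 (list range -0.65 to 0.93). An unadjusted limma p under 0.05 was found there for 7 of the 18, and for 10.6% of all genes. In stimulated cells 2 of the 18 were called lower in null than in wild type, Fosl1 (-0.85, SE 0.18, limma adjusted p 0.046) and Ier3 (-1.68, SE 0.34, adjusted p 0.039), where 0.544% of all genes were called lower. None was called higher, and the list ran up to 0.71 for Dusp6 (adjusted p 0.11). Dusp6 was at 9.72, 9.11 and 9.03 in stimulated wild-type and 10.18, 9.73 and 10.07 in stimulated null cells, where every null value lay above every wild-type one. The same held for Dusp6 without peptide, at 7.15, 6.70 and 7.03 in wild-type and 7.48, 7.85 and 7.51 in null cells, where it was not called. In stimulated null cells Egr1 was higher by 0.45 (adjusted p 0.28) with overlapping values, and 7 of the 18 were above 0.

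**Figure D4:**
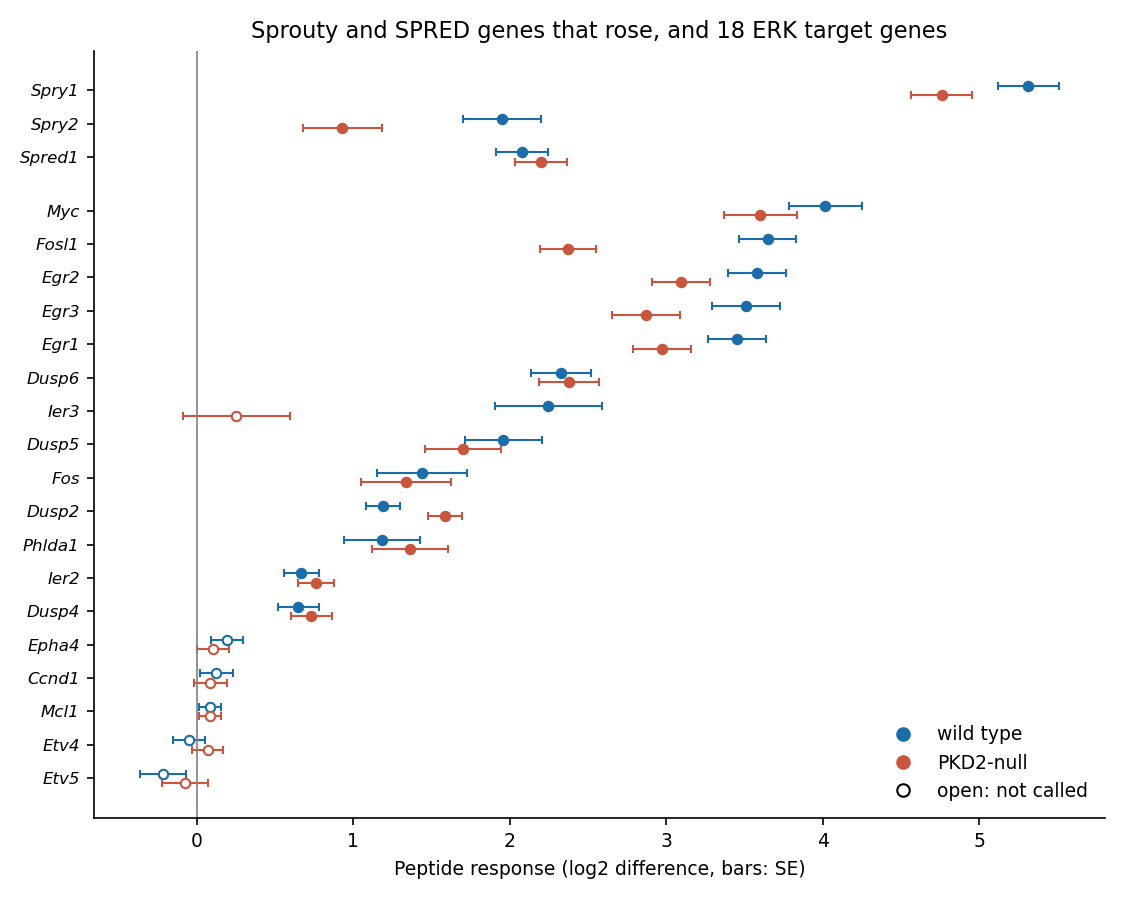
Peptide response (log2 difference, bars give the SE) of Spry1, Spry2 and Spred1 and of 18 genes that ERK signalling induces, in wild-type (blue) and PKD2-null (red) cells; filled points were called. Ier3 rose by 2.25 in wild-type cells and was not called in null cells, and Fosl1 rose by 3.65 and 2.37.

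Ier3, an immediate early gene, was at 9.41, 9.35 and 9.11 in stimulated wild-type and 7.21, 8.65 and 6.97 in stimulated null cells, with null replicate 2 nearest the wild-type values. Fosl1 was at 8.24, 8.27 and 8.59 in stimulated wild-type and 7.60, 7.88 and 7.06 in stimulated null cells. Neither gene's groups overlapped. These 2 calls were as near the threshold as that of Spry2: the count of 2 was 0 or 1 in 19 of 26 alternatives, among them the omission of any array other than stimulated null replicate 2, and 4 without both arrays of null replicate 2.

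Phosphatases that switch off MAP kinases are negative regulators of these kinases, and the list was not limited to those that act on ERK. Of 10 measured, 4 were called higher and 3 lower in wild-type cells, where 15.1% and 20.4% of all genes were, and 4 higher and 3 lower in null cells, against 12.5% and 19%. The calls shared by both genotypes were 4 higher and 3 lower. For the difference of the responses 0 of 10 were called by limma, where 0.0055% of all genes were. An unadjusted limma p under 0.05 was found for 1 of the 10, and for 7.71% of all genes. The differences ran from -0.26 to 0.40. Dusp6, an ERK phosphatase, rose by 2.33 in wild-type and 2.38 in null cells, and Dusp5, a nuclear ERK phosphatase, by 1.96 and 1.70. Dusp10 fell, with differences of -2.69 and -2.39, as did Dusp1 with -0.95 and -1.07. Dusp2 and Dusp4 are counted among the ERK-induced genes as well, as are Dusp5 and Dusp6. In the comparison of stimulated null with wild-type cells limma called 0 genes among the phosphatases, the cascade, the Ras GTPase-activating proteins and the partners. Over all genes 1.64% were called there, so that 0 calls in lists this short is near that share. In these lists an unadjusted p under 0.05 was found for 3 of 10, 4 of 16, 4 of 7 and 3 of 13 genes. Over all genes it was found for 17.6%.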

How the data were processed

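The deposited table held log2 signals of Affymetrix probe sets on 12 arrays, which the authors made with Affymetrix Expression Console 1.1, per the submitters' processing notes. Their normalization method (not given in the sources used here) stays unknown, and the values were used as deposited. Of 45101 probe sets, 64 controls were left out; 34945 of the rest had 1 gene symbol in the platform annotation while 932 with several were left out as genes. limma 3.58.1 in R 4.3.3 fitted the 4 group means (8 residual and 4.18 prior degrees of freedom) and gave 5 comparisons, and it was tested on simulated data. A value has the standard error of that fit, and 3 arrays per group limit its precision.

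Mouse numbers in the labels pair the arrays: deviations from the group means correlated at 0.12 to 0.58 within a mouse and at -0.40 to 0.13 between mice. The mouse as a block was an alternative. The genes and lists were chosen with earlier results of these data known. Named are the 5 genes, the 5 largest called changes of each list in the wild-type response and up to 3 in other comparisons, and the 4 genes most like each gene. Omitting both arrays of a mouse and the shorter motif letters were chosen after seeing the data. Some listed genes were not analysed here.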

Additional observations from a re-analysis of the deposited data

How the results depend on the processing

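Over 26 alternatives and the other probe sets, 682 of 715 recomputed differences of the 5 genes kept their side of the threshold, 30 lost the call and 3 gained one. Spry1 and Spred1 kept both peptide responses in all 26. The genotype call of Spry2 in stimulated cells was lost with only the 2 groups compared and with a robust prior (-1.16 in both, adjusted p 0.11 and 0.058; 0 genes called), with the other probe set (-0.32), and in most omissions (-1.34 to -0.90, 0 to 2 genes called). It was kept with the mouse as a block (adjusted p 0.041), which changed no other call of the 5 genes than that of Spred2 in null cells; over all probe sets the block raised the calls for the difference of responses from 0 higher and 1 lower to 9 and 34 and for the genotypes without peptide from 7 and 10 to 19 and 25. The Spry2 response in null cells was 0.47 with the mean of the probe sets of a gene and 0.0080 with the other probe set, both uncalled (0.65 to 1.19 over omissions), and in wild-type cells 0.28 with the other probe set. Of the other Spred1 probe sets, 1 was uncalled in both responses (0.40 in wild-type and 0.38 in null cells) and 1 in wild-type cells (0.16).

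Of the recomputed differences 55 changed sign, 0 of them while called, in 13 results whose main values were at most 0.34 in size. With quantile normalization these were Spry4 (-0.026) and Spred2 (0.0022) in the wild-type response, and Spred1 (-0.014) and Spred2 (-0.0076) between genotypes without peptide. With the mean of the probe sets they were Spry4 (0.0019) and Spred2 (-0.032) between genotypes without peptide, and Spry4 with peptide (-0.013) and in the difference of responses (-0.014). By other probe sets the responses were 0.13 and 0.047 for Spred2 in wild-type, and -0.0097 for Spry4 and -0.014 for Spred2 in null cells. Between genotypes without peptide they gave 0.072 and 0.089 for Spry4, -0.17, -0.25 and -0.024 for Spred1, and -0.17 and -0.14 for Spred2. With peptide they gave -0.052 and -0.23 for Spry4 and -0.040 for Spred2, and for the difference of responses -0.12 and -0.15 for Spry4, -0.019 for Spred1 and -0.016 for Spred2. Omitting arrays or mice gave wild-type responses of -0.086 to 0.10 for Spry4 and -0.069 to 0.036 for Spred2. Without peptide it gave genotype differences of -0.13 to 0.30 for Spry1, -0.20 to 0.0051 for Spry4, -0.086 to 0.15 for Spred1 and -0.040 to 0.20 for Spred2. With peptide it gave -0.033 to 0.039 for Spry4, and for the difference of responses -0.024 to 0.21 for Spry4 and -0.010 to 0.29 for Spred1. The cause was not tested in any of these.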
